A study of Homo sapiens with 22 samples.

Results

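The AP-1 transcription factors described here are 10 genes, FOS, FOSB, FOSL1, FOSL2, JUN, JUNB, JUND, ATF3, BATF3 and MAFF, found by symbol among the 33538 genes of a first single-cell RNA sequencing table of WM989 melanoma cells and the 36601 genes of 2 later ones. WM989 A6-G3 and WM983B E9-D5 are BRAF-mutant human melanoma lines grown from single cells, so each stands for 1 clone of 1 tumor. The first table holds untreated WM989 cells that carry a transcribed lineage barcode, in 8 wells of 2 replicates, r1 and r2; each replicate combined a culture sorted as EGFR- and NGFR-high with a mixed one, and each culture was loaded into a pair of wells. The second holds untreated WM983B cells in 1 library. The third holds barcoded WM989 cells from 2 parallel wells (r1 and r2), each split over 4 plates with 1 library per plate. Plates were left untreated (Control) or given TGFB1, the TGF-β receptor inhibitor LY2109761 (TGFBRi) or the PI3K inhibitor GDC-0941 (PI3Ki). The sample labels name 1 set of 4 treatment libraries Mix and the other Primed, and which of these is r1 remained unsettled. ATAC-seq, which reads open chromatin, covers untreated WM989 cells sorted as EGFR-High, NGFR-High, EGFR-NGFR-High or negative for both markers (labelled Mix), with 3 libraries each. In each RNA table the authors class every cell as drug-susceptible or as primed. The paper describes the primed state as rare in WM989 and as more likely to survive targeted therapy.

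AP-1 is a dimer of basic leucine zipper proteins. A Fos subunit must pair with a partner, commonly a Jun subunit, to bind the AP-1 element TGACTCA, while Jun subunits also pair with each other and with ATF proteins, and the small Maf proteins, MAFF among them, form dimers of their own with other elements. FOS, FOSB and JUN are immediate early genes that growth factors and stress induce through MAP kinases, FOSL1 and FOSL2 are later and longer-lived products of the same signals, and in melanoma AP-1 is known for its part in the dedifferentiated, therapy-tolerant state.

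The first table holds 12531 cells, 2843 of them primed, at 35882876 to 177318308 unique molecular identifiers (UMIs) and 408 to 3841 cells per well. The second holds 1449 cells, 731 of them primed, at 102738398 UMIs, and the third 40021 cells, 4077 of them primed, at 70239657 to 122420544 UMIs per library. In the first table the markers of the primed state NT5E, EGFR, AXL and NGFR were higher in primed cells in 4 of 4 cases and the melanocyte identity genes SOX10, MITF, PMEL, MLANA, DCT and TYR lower in 6 of 6, with AXL at 42.3 against 0.469 and MLANA at 59.0 against 1683 counts scaled to a fixed library total (CPM, counts per 1e6 UMIs). Of 10 markers of leukocytes, endothelium, epithelium and fibroblasts, 7 lay under 1 CPM in primed and 8 in drug-susceptible cells, KRT5 was at 0, and their summed level was 46.0 against 33.9 CPM; PECAM1, an endothelial adhesion molecule, was at 22.8 in primed and 0.183 in drug-susceptible cells, and LUM, a fibroblast matrix gene, at 16.9 and 32.2. The median cell held 58253 UMIs if primed and 52835 if drug-susceptible in the first table, and 11211 and 16825 in the third. Cell barcodes found in more than 1 library made up 0.303% of cells in the first table and 0.969% in the third.

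The upstream sequence is shown for the immediate early Fos genes FOS and FOSB and the 3 Jun genes, all of which TGFB1 raised over all cells below. These are the 250 bases before the RefSeq start (GRCh38.p14), each 5′ to 3′ on the gene's own strand, with capitals on the CRE-type and variant AP-1 elements found in them. FOS lies at chr14:75278578-75278827 on the plus strand, FOSB at chr19:45467746-45467995 on the plus strand, JUN at chr1:58784048-58784297 on the minus strand, JUNB at chr19:12791236-12791485 on the plus strand, in an intron of HOOK2, and JUND at chr19:18281623-18281872 on the minus strand.
FOS: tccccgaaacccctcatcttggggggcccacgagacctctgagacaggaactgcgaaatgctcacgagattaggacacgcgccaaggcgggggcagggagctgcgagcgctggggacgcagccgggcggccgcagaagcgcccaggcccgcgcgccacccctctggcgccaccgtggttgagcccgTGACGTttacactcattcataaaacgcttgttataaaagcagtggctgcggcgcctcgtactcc
FOSB: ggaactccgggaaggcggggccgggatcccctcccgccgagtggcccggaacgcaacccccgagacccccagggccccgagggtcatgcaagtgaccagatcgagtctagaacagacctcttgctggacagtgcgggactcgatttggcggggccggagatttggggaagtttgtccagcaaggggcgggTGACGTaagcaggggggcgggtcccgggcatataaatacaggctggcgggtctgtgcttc
JUN: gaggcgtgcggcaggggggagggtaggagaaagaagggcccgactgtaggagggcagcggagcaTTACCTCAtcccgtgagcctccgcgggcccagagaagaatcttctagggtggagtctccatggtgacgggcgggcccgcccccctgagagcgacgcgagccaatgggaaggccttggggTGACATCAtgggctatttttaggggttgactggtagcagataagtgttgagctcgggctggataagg
JUNB: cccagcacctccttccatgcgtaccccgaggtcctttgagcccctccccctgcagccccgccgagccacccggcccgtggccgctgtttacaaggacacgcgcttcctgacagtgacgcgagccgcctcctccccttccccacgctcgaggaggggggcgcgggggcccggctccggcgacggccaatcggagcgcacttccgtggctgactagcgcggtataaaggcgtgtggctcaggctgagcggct
JUND: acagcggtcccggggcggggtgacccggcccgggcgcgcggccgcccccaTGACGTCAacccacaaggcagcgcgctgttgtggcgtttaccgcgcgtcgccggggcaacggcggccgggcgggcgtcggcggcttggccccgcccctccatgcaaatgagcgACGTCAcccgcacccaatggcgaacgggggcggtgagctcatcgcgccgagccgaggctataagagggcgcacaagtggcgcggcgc
The searched letters were TGACTCA (AP-1 element), TGACGTCA (CRE), TGACGT (its shorter form, which TGACGTCA contains), and TGACATCA and TTACCTCA, the variants known in the JUN promoter, all on both strands. FOS held TGACGT 64 bases upstream, FOSB held it 60 bases upstream, JUN held TGACATCA 67 and TTACCTCA 186 bases upstream, and JUND held TGACGTCA 200 bases upstream beside TGACGT on the other strand at 87. JUNB held none of these elements. Of 35116 promoters of the same length, 4.20% held TGACTCA, 1.65% TGACGTCA, 7.10% TGACGT, 2.38% TGACATCA and 0.644% TTACCTCA. 8 of 10 members matched the promoter table; FOSL1 and BATF3 did not match.

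In untreated WM989 cells, most AP-1 subunits were higher in the primed state. Within wells, the level in primed relative to drug-susceptible cells was highest for JUN, at a median of 15.4 times over the 8 wells, then FOSB at 6.29, FOSL2 at 3.80 and JUNB at 3.07. MAFF (1.21), FOS (1.22) and BATF3 (1.84) had the lowest median ratios. Pooled over wells, which differ in their share of primed cells, the ratios were 26.1 for JUN, 8.48 for FOSB, 4.74 for FOSL2, 4.55 for JUNB and 3.10 for BATF3, those of JUN and BATF3 lying above the ratio of any 1 well (at most 25.6 and 2.20). The authors made the states by clustering these same cells on their gene expression, so the differences between states are a description without a test.

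Among the Fos subunits, FOSL1 (Fra-1) lay between 111.1 and 244.9 CPM (median 201.9) in the primed cells of the 8 wells and between 37.9 and 94.7 (median 70.9) in their drug-susceptible cells. FOSL2 (Fra-2) lay between 16.99 and 48.7 CPM (median 25.8) against 3.92 to 10.4 (median 6.78). Neither overlapped between the states. FOSB, an immediate early subunit, lay between 7.92 and 38.4 CPM (median 24.3) in primed and 1.36 to 8.58 (median 2.17) in drug-susceptible cells, so that its lowest primed well fell within the other range although primed cells were higher within each of the 8 wells. FOS lay between 16.0 and 44.6 CPM (median 27.4) in primed and 14.9 to 34.7 (median 17.8) in drug-susceptible cells. FOS overlapped widely and was higher in the primed cells of 7 of 8 wells, the exception being well 6 with 16.0 in primed and 28.3 in drug-susceptible cells.

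Of the Jun subunits, JUN, a strong activator in AP-1 dimers, lay between 40.5 and 110.1 CPM (median 80.0) in primed and 1.84 to 9.21 (median 5.23) in drug-susceptible cells, and the level within a well was 9.81 to 25.6 times higher in primed cells. JUNB lay between 92.0 and 234.3 CPM (median 137.7) against 25.7 to 75.6 (median 35.1). JUND, the subunit that resting cells also hold, lay between 107.6 and 221.4 CPM (median 148.2) against 46.4 to 79.4 (median 54.5). All 3 Jun subunits were without overlap. The reads of JUNB share 259 exonic bases with HOOK2 on the opposite strand, and those of MAFF 326 with PLA2G6; whether the counting used strand is not given in the sources used here, so reads from these stretches cannot be assigned with certainty.

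The partners outside Fos and Jun were low. ATF3, a stress-induced member that can repress its targets, lay between 3.17 and 5.96 CPM in primed and 1.17 to 3.03 in drug-susceptible cells. BATF3, best known as a partner of Jun in immune cells, lay between 7.68 and 19.1 CPM (median 12.9) against 4.05 to 13.4 (median 6.45), and MAFF between 10.1 and 16.5 (median 12.2) against 8.81 to 12.03 (median 10.8). BATF3 and MAFF overlapped between the states, while ATF3 did not.

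All 8 primed values thus lay above all 8 drug-susceptible values for FOSL1, FOSL2, JUN, JUNB, JUND and ATF3. Among the 6316 genes that reached 20 CPM in either state, the minimum for counting genes here, 14.1% lay above and 16.2% below in this way. 7 of the 10 members reached that level, all but ATF3, BATF3 and MAFF, but FOS, FOSB, FOSL2 and JUN did so in primed cells alone, which favours a difference, so nothing is read from their count against these shares. The wells are loadings of a few cultures, so their spread may be technical.

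**Figure D1:**
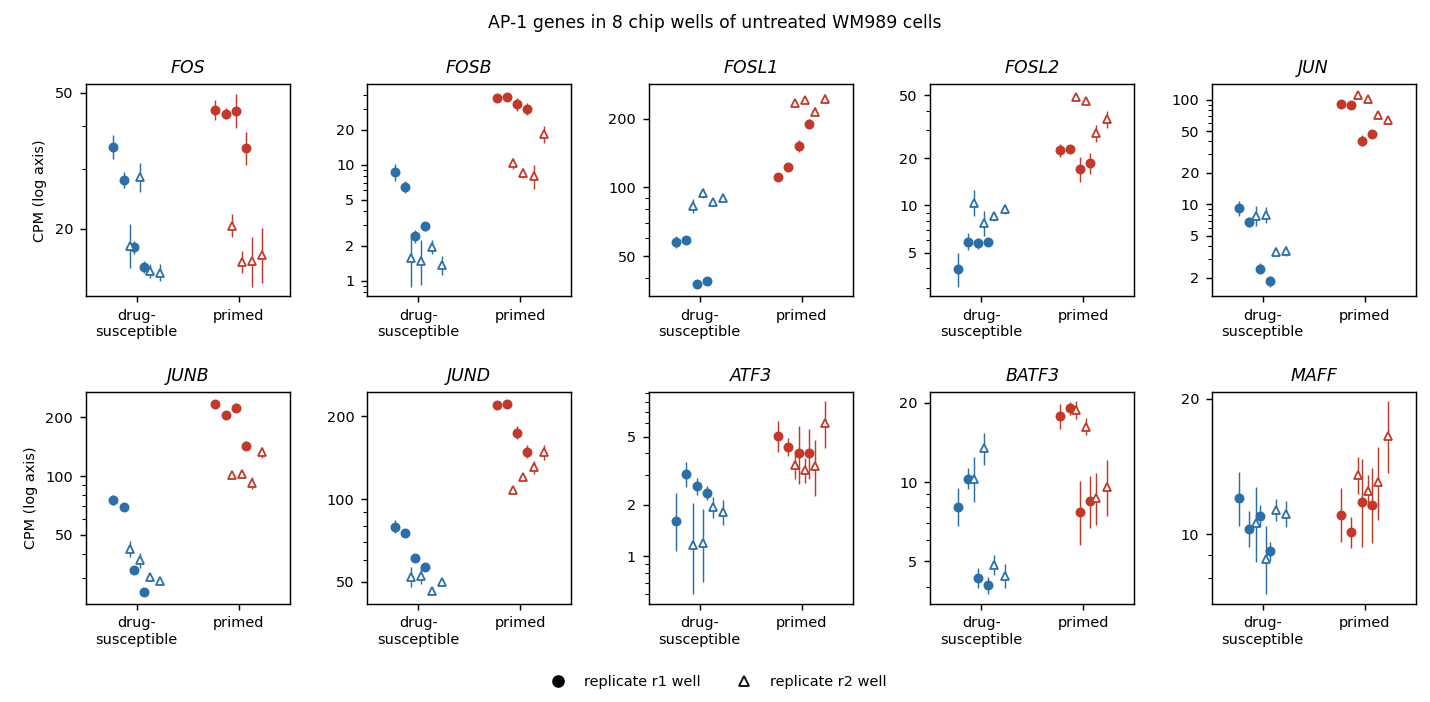
Levels of the 10 AP-1 members in CPM (log axis) in untreated WM989 cells, with 1 point and exact Poisson interval per well for the primed and the drug-susceptible cells of each of the 8 wells (filled r1, open r2). JUN stands farthest apart, with primed values from 40.5 to 110.1 and drug-susceptible values from 1.84 to 9.21, while FOS and MAFF overlap between the states.

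The wells differed among themselves in ways that the state does not cover. In primed cells FOS was 34.4 to 44.6 CPM in the 4 wells of r1 and 16.0 to 20.5 in the 4 wells of r2, and FOS, FOSB, JUNB and JUND were all higher in every r1 well than in any r2 well, by 2.41, 3.10, 1.89 and 1.51 times on average. Among the 6316 genes, 11% had all r1 wells above, and 42.9% had all r1 wells below. FOSL1 and FOSL2 belonged to the latter group, at 1.63 and 1.96 times higher in r2. JUN overlapped between the replicates. Within r1 and r2 taken alone, each pooled over its 4 wells, primed cells held 2.28 and 1.098 times the FOS of drug-susceptible cells, 10.6 and 5.90 times the FOSB, 3.05 and 2.69 times the FOSL1, 5.67 and 3.34 times the JUNB, and 26.7 and 24.3 times the JUN.

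The share of primed cells also differed, from 56.9% to 79.7% in wells 1, 2, 5 and 6 and from 6.85% to 9.42% in wells 3, 4, 7 and 8, and JUN moved with it within each state. JUN in drug-susceptible cells was 6.86 to 9.21 CPM in the former wells and 1.84 to 3.60 in the latter, and in primed cells 89.2 to 110.1 and 40.5 to 70.7. BATF3 in drug-susceptible cells was 8.06 to 13.4 and 4.05 to 4.84 CPM. Neither gene overlapped between these sets of wells, but how many of all genes separate in this way was not counted. The part of the wells' cell makeup in these levels was not tested, and which wells held which sort is not analysed here.

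The states also differ in their cell cycle, since 73.7% of primed and 25.5% of drug-susceptible cells were called G1. The values by phase pool cells over wells that differ in their share of primed cells. Taking G1 cells alone does not remove that difference between wells. With G1 cells alone, primed cells held 18.4 times the JUN, 9.30 times the FOSB, 4.75 times the FOSL1, 4.18 times the JUNB, 3.61 times the FOSL2, 3.24 times the BATF3, 2.94 times the JUND, 1.71 times the FOS and 1.15 times the ATF3 of drug-susceptible cells. FOSL1 itself varied with phase in both states, at 29.1, 60.7 and 80.5 CPM in G1, S and G2M of drug-susceptible and 138, 245 and 314 of primed cells. JUN ran the other way in drug-susceptible cells, at 4.96, 3.42 and 2.42 CPM.

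The authors' 11 clusters resolve the primed state into clusters 2, 8 and 9, and the subunits did not share 1 order among them. FOSL1 was 123.4 CPM in cluster 2, 151 in cluster 8 and 335 in cluster 9, while JUNB was 176, 123.4 and 130 and FOSB 28.2, 19.4 and 16.5. JUN was 97.0, 53.0 and 99.1 CPM, against 0.831 to 8.96 in the 8 drug-susceptible clusters. Cluster 9 is 62.9% G2M and cluster 2 is 93.8% G1. FOS was nearly as high in the drug-susceptible cluster 6, at 32.3 CPM and 99.7% G2M, as in cluster 2, at 36.0. ATF3 and MAFF peaked outside the primed state, in cluster 10 with 13.7 and 29.9 CPM.

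**Figure D2:**
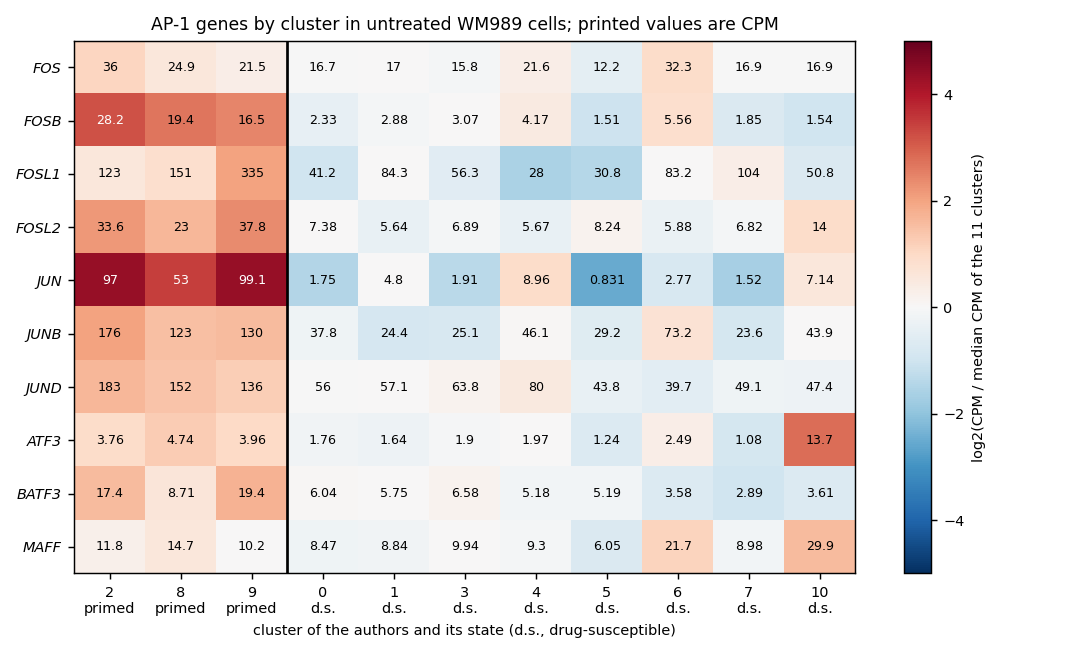
Levels of the AP-1 members in the 11 clusters of untreated WM989 cells, in CPM, printed in the cells and colored by the log2 ratio to the gene's median over the clusters, with primed clusters 2, 8 and 9 set apart from the 8 drug-susceptible ones. FOSL1 is highest in cluster 9 (335), FOS, FOSB, JUNB and JUND in cluster 2, and ATF3 and MAFF in cluster 10, a drug-susceptible cluster.

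As a description, the genes closest to a member over these 11 clusters were found among 7021 genes by Pearson's correlation of log2(CPM + 1). For JUN they were CYLD (0.989), MYOF (0.989), CRIM1 (0.986), NDRG1 (0.983) and FN1 (0.983). For FOSL1 they were ARF6 (0.963), TAF6 (0.960), CEP89 (0.954), AC084033.3 (0.954) and MAP1S (0.952), and for FOS PDE4B (0.940), SPRY1 (0.939), USP53 (0.907), VGLL4 (0.905) and SLC2A3 (0.903). The clusters share libraries and differ in cell cycle, and the genes were picked as the highest, so the coefficients carry no test. Over the 13 clusters of the treatment experiment the same pairs had lower coefficients. They were 0.853 to 0.972 for JUN, 0.640 to 0.860 for FOSL1 (no value for AC084033.3) and 0.341 to 0.774 for FOS.

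Of 18 genes known as AP-1 targets, 12 reached 20 CPM in either state, and these 12 were higher in the primed cells of all wells. Some, such as IL1B and MMP3, reached that level in primed cells alone, so the count is a description. MMP1, a collagenase, lay between 1348 and 3951 CPM in primed and 13.7 and 90.0 in drug-susceptible cells, and IL1B and MMP3 were at 73.4 and 32.8 against 0.145 and 0.118. Of 8 other leucine zipper genes at that level 0 were above and 1 was below, BATF at 15.1 against 25.7 CPM.

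The lists that follow hold genes at 20 CPM in either state, beside the 14.1% of all such genes above and 16.2% below. Some listed genes, such as RPS6KA2, ELK3, KLF2 and GADD45B, reached that level in primed cells alone, and RPS6KA5 in drug-susceptible cells alone. That favours a difference, so the counts are a description and nothing is read from them against these shares. Of 13 MAP kinase and serum response factor genes 2 were above, RPS6KA2 (23.3 against 4.81 CPM) and ELK3 (60.0 against 19.5), and RPS6KA5 was below (15.8 against 46.2). Of 14 other genes induced early or by tissue dissociation 6 were above, among them KLF2 (24.6 against 2.71 CPM), IER3 (1492 against 293.7) and GADD45B (31.1 against 8.69), and 1 was below; the part of cell handling in the early genes was not tested. Of 10 ERK feedback genes 3 were above, such as PHLDA1 (856 against 188.5 CPM), and 2 below, ETV4 (51.4 against 154.3) and ETV5 (75.8 against 208.7). Of 6 genes of the integrated stress response, which induces ATF3, 2 were above, DDIT4 (331 against 89.9 CPM) and PPP1R15A (121.8 against 58.3).

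WM983B gave a comparison of its own labelled states in 1 library, where intervals cover counting error only. Of its 1449 cells 731 were primed, and the states lay closer in identity than in WM989. Of 6 identity genes 3 had a ratio below 0.5, such as MLANA (2.40 against 59.8 CPM). SOX10 (191.5 against 208.1) and TYR (57.1 against 67.9) differed little. The 3 primed state markers at 20 CPM were past a ratio of 2, and EGFR was at 3.13 against 2.21. JUN was 36.9 CPM (95% exact Poisson interval 35.2 to 38.7) in primed and 14.01 (13.0 to 15.04) in drug-susceptible cells, 2.64 times higher. FOSB was 9.38 against 4.03 CPM, FOSL2 7.72 against 3.41, ATF3 8.07 against 3.93 and FOSL1 88.8 against 49.8. JUNB was 57.2 against 39.1 CPM, 1.46 times higher. FOS (22.8 against 19.3 CPM), JUND (108 against 92.8) and MAFF (89.4 against 85.1) were 1.18, 1.17 and 1.05 times higher. BATF3 was lower in primed cells, 5.26 against 5.94. JUN, which reached 20 CPM in primed cells alone, was the 1 member of the 6 at that level that was past a ratio of 2, beside 1.3% of all such genes above it and 0.686% below 0.5. In G1 cells alone the ratio was 3.86 for JUN, 6.22 for FOSB, 5.36 for ATF3, 2.79 for FOSL2, 2.14 for FOSL1 and 2.02 for FOS, so that FOSL1 and FOS were past a ratio of 2 there as well. FOSL1 was as high in cluster 3, a drug-susceptible cluster of 87.8% G2M cells with 96.2 CPM, as in the primed clusters 0 and 2 with 89.1 and 86.8. JUN was 20.04 CPM in that cluster and 36.4 and 40.3 in the primed ones.

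The treatment experiment asked whether TGFB1 and the inhibitors move cells between states. TGFB1 left 29.1% and 31.3% of cells primed in r1 and r2, Control 2.26% and 4.47%, and PI3Ki 0.647% and 1.21%. Since the summed counts of a whole library mix both states, fewer cells of a state and less RNA per cell cannot be told apart there. The states were therefore also tested apart, though the authors called them after treatment from the same counts. Values below are given for r1, then r2, and all tests are edgeR's quasi-likelihood test with replicate as a block and adjustment over all genes. The 3 treatments are set against the same Control libraries. Where a library is left out, its group keeps 1 library, which is assumed to vary like those of the other groups.

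Over all cells, TGFB1 raised 7 of 10 members, JUN most. JUN was 3.52 and 5.37 CPM in Control and 20.4 and 19.1 in TGFB1, 4.48-fold higher (log2 2.16, SE 0.148, adjusted p = 1.19e-10). JUNB was 33.3 and 34.8 in Control and 84.2 and 76.0 in TGFB1 (log2 1.22, SE 0.0674, adjusted p = 3.2e-12). FOSB went from 36.5 and 27.3 to 76.7 and 64.1 (log2 1.14, adjusted p = 9.31e-12) and FOS from 34.8 and 37.6 to 73.5 and 73.1 (2.01-fold, adjusted p = 1.1e-10). None of these 4 overlapped between the treatments, though how many of all genes did so was not counted. JUND (log2 0.68), FOSL1 (0.46) and BATF3 (0.45) rose less, with adjusted p of 2.88e-07, 0.000268 and 0.0187, FOSL1 and BATF3 losing their calls without TGFB1 replicate 1 (adjusted p of 0.0618 and 0.287) and BATF3 also without Control replicate 1 (0.123), in DESeq2 (0.0835) and in G1 cells (0.0706). Without the replicate term edgeR called neither FOSL1 (adjusted p = 0.107) nor BATF3 (0.223). FOSL2 (log2 -0.035), ATF3 (0.16) and MAFF (-0.21, adjusted p = 0.0676) did not pass, though MAFF was called without either TGFBRi library (edgeR adjusted p of 0.0381 and 0.0363). Of 18389 genes, 16.3% rose and 12.7% fell.

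**Figure D3:**
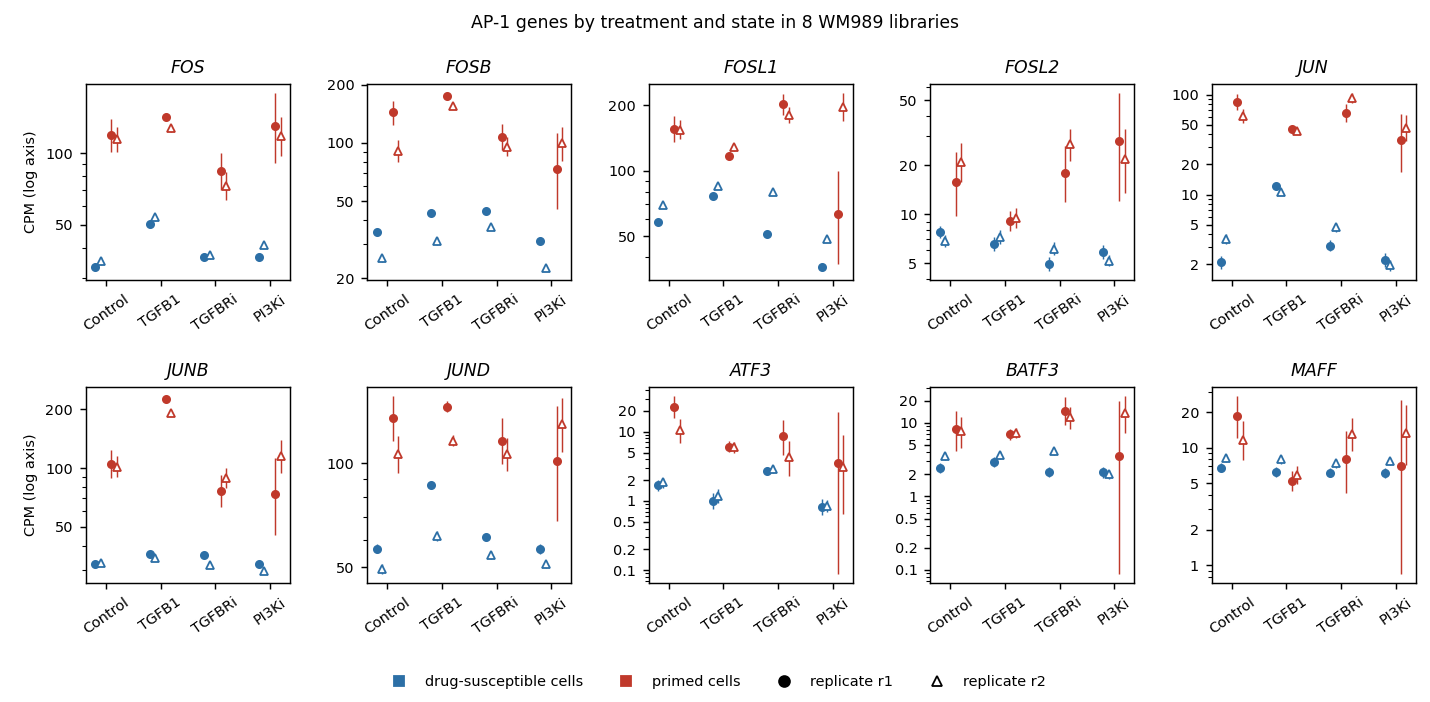
Levels of the AP-1 members in the drug-susceptible (blue) and primed (red) cells of the 8 libraries of the treatment experiment, in CPM (log axis), with filled circles for r1, open triangles for r2 and bars for the exact Poisson interval of the counts. TGFB1 stands apart for JUN in drug-susceptible cells (12.1 and 10.6 against 2.098 and 3.60 in Control) and for JUNB in primed cells (227.4 and 191.7 against 105.1 and 101.8).

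In drug-susceptible cells alone, TGFB1 raised 5 members and lowered 1. JUN was 2.098 and 3.60 CPM in Control and 12.1 and 10.6 in TGFB1, 3.98-fold higher (log2 1.99, SE 0.158, adjusted p = 1.81e-09). FOS was 33.3 and 35.2 in Control and 50.4 and 53.7 in TGFB1 (log2 0.59, SE 0.0669, adjusted p = 6.71e-07). JUN and FOS kept their calls under every alternative that was run. JUND went from 56.7 and 49.5 to 86.3 and 61.5 (log2 0.46, adjusted p = 0.00026), FOSL1 from 57.9 and 69.9 to 76.5 and 84.8 (log2 0.33, adjusted p = 0.0119) and FOSB from 34.6 and 25.3 to 43.6 and 31.2 (log2 0.31, adjusted p = 0.00392). ATF3 fell from 1.68 and 1.85 to 1.003 and 1.19 (log2 -0.71, SE 0.156, adjusted p = 0.00265). These 4 calls were lost without TGFB1 replicate 1, with edgeR's adjusted p of 0.0869 for JUND, 0.546 for FOSL1, 0.189 for FOSB and 0.0573 for ATF3, and those of FOSL1 and FOSB also without Control replicate 2, at 0.16 and 0.0868. FOSL1 was not called by DESeq2 (adjusted p = 0.244) nor ATF3 in G1 cells (edgeR adjusted p = 0.359), and without the replicate term edgeR did not call JUND (0.0857), FOSL1 (0.346) or FOSB (0.431). JUNB was 32.1 and 32.7 in Control and 36.1 and 34.6 in TGFB1 (log2 0.11, adjusted p = 0.316), and was called in G1 cells alone (log2 0.26, edgeR adjusted p = 0.0306). BATF3, MAFF and FOSL2 did not pass either. Of 17914 genes, 8.56% rose and 6.32% fell.

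JUN was unevenly spread over the drug-susceptible cells of the TGFB1 plates. Cluster 3, of which 94.9% are TGFB1 cells, held 17.99 and 20.2 CPM of JUN in the TGFB1 libraries (2182 and 1619 cells), while their other drug-susceptible cells held 6.13 and 5.33 (1660 and 2239 cells). The matching Control cells outside cluster 3 held 1.99 and 3.06, and the 56 and 59 Control cells in cluster 3 held 11.6 and 44.3. FOS showed no such split, at 53.4 and 48.9 CPM in cluster 3 and 47.3 and 56.4 outside it, against 33.2 and 35.01 in Control. FOSB was 53.6 and 38.8 in cluster 3 and 33.5 and 26.96 outside it, against 34.1 and 24.8 in Control outside cluster 3. JUND was 98.3 and 80.04 in cluster 3 and 74.3 and 51.4 outside it, against 56.3 and 48.8. FOSL1 ran the other way, at 65.35 and 78.8 in cluster 3 and 87.7 and 88.1 outside it, against 57.5 and 69.3.

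Primed cells under TGFB1 showed a different set of changes, but also a different cluster. Of their TGFB1 cells 98.2% and 97.1% lay in cluster 4, where 5.32% and 3.64% of Control primed cells lay, and the rest lay in cluster 10, so that the treatment and the cluster cannot be told apart in this comparison. JUNB was 105.1 and 101.8 CPM in Control and 227.4 and 191.7 in TGFB1 (log2 1.104, SE 0.144, adjusted p = 1.35e-07), and FOSB 143.8 and 91.4 against 175.3 and 156.0 (log2 0.61, SE 0.143, adjusted p = 0.00172). JUN went the other way, from 85.0 and 60.8 to 45.2 and 43.0 (log2 -0.60, SE 0.162, adjusted p = 0.00758). FOSL2 fell from 15.7 and 20.9 to 9.10 and 9.48 (log2 -0.91, adjusted p = 0.00475), ATF3 from 23.1 and 10.5 to 6.06 and 5.95 (log2 -1.28, adjusted p = 0.00102) and MAFF from 18.6 and 11.7 to 5.22 and 5.91 (log2 -1.27, adjusted p = 0.00152). FOS (log2 0.28, adjusted p = 0.161) and FOSL1 (log2 -0.25, adjusted p = 0.349) did not pass, though FOSL1 was called lower in G1 cells alone (log2 -0.65, edgeR adjusted p = 0.00515). Of 10930 genes, 6.21% rose and 7.09% fell.

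These primed calls rest on few Control cells, 94 in r1 and 165 in r2. Without Control replicate 1, JUN (adjusted p = 0.594), ATF3 (0.312) and MAFF (0.266) lost their calls in edgeR, and without Control replicate 2, FOSB (0.506) and FOSL2 (0.334) did. Without TGFB1 replicate 1, FOSB (0.0869), JUN (0.0633) and ATF3 (0.366) were lost, and without TGFB1 replicate 2, FOSB (0.0874), FOSL2 (0.259) and JUN (0.252) were; JUNB kept its call in all 4. DESeq2 did not call FOSB (adjusted p = 0.0555), FOSL2 (0.0882), JUN (0.159) or ATF3 (0.0731). In a comparison chosen after seeing the data, cluster 10 cells alone (89 and 159 in Control, 29 and 51 in TGFB1) turned JUNB to log2 -0.34 (edgeR adjusted p = 0.603), FOSB to -0.68 (adjusted p = 0.311) and FOS to -1.42 (adjusted p = 0.000828). JUN kept its direction there without its call, at log2 -0.90 (edgeR adjusted p = 0.206). Of the other falls, ATF3 was at -2.31 (edgeR adjusted p = 0.0829), FOSL2 at -0.24 (0.904) and MAFF at -0.048 (0.986), so that none of the calls over all primed cells held in cluster 10 alone. In the TGFB1 libraries, cluster 4 held 211.5 CPM of JUNB, 167.4 of FOSB and 136.4 of FOS, and cluster 10 held 83.4, 65.9 and 44.3, against 102.7, 104.6 and 116.5 in cluster 10 of Control.

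The difference between the states in their change under TGFB1 was tested as an interaction over sums per library and state. Here edgeR replaced most genes' own spread between libraries by a trend over all genes. Its p-values for this term thus need not measure a gene's own spread. The difference was negative for JUN (log2 -2.45, SE 0.154, edgeR adjusted p = 7.57e-54), which rose in drug-susceptible and fell in primed cells. It was positive for JUNB (log2 1.07, SE 0.108, edgeR adjusted p = 1.2e-20), which passed in primed cells and, in drug-susceptible cells, when G1 cells were taken alone. MAFF (-1.08), FOSL2 (-0.79) and FOSL1 (-0.48) were lower and FOSB (0.39) higher in primed cells, with edgeR adjusted p of 0.00257, 0.018, 8.97e-05 and 0.00588. In G1 cells FOSB (adjusted p = 0.51) and FOSL2 (0.306) were not called in edgeR and ATF3 was (log2 -1.49, adjusted p = 0.0121). DESeq2 called JUN (-2.62, adjusted p = 7.04e-12) and JUNB (0.99, adjusted p = 0.00158) and no other member. Without single libraries, edgeR's adjusted p reached 0.337 for MAFF (Control replicate 1), 0.79, 0.104 and 0.139 for FOSL2 (Control replicate 2, TGFB1 replicates 1 and 2), 0.0517, 0.102 and 0.0517 for FOSL1 (Control replicate 1, TGFB1 replicates 1 and 2) and 0.238 and 0.71 for FOSB (Control replicate 2, TGFB1 replicate 2). With cluster 10 as the primed cells, JUN stayed at -2.86 (edgeR adjusted p = 4.19e-17), while JUNB was -0.41 (adjusted p = 0.533), FOSB -0.98 (adjusted p = 0.00132) and MAFF 0.037 (adjusted p = 1). FOSL1 and FOSL2 lost their calls there in edgeR, at -0.15 each (adjusted p of 0.886 and 0.951), and FOS was called, at -2.01 (adjusted p = 6.69e-14). Among 18502 genes, 5.49% were higher and 4.49% lower in this term, 6 of 10 members passing.

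**Figure D4:**
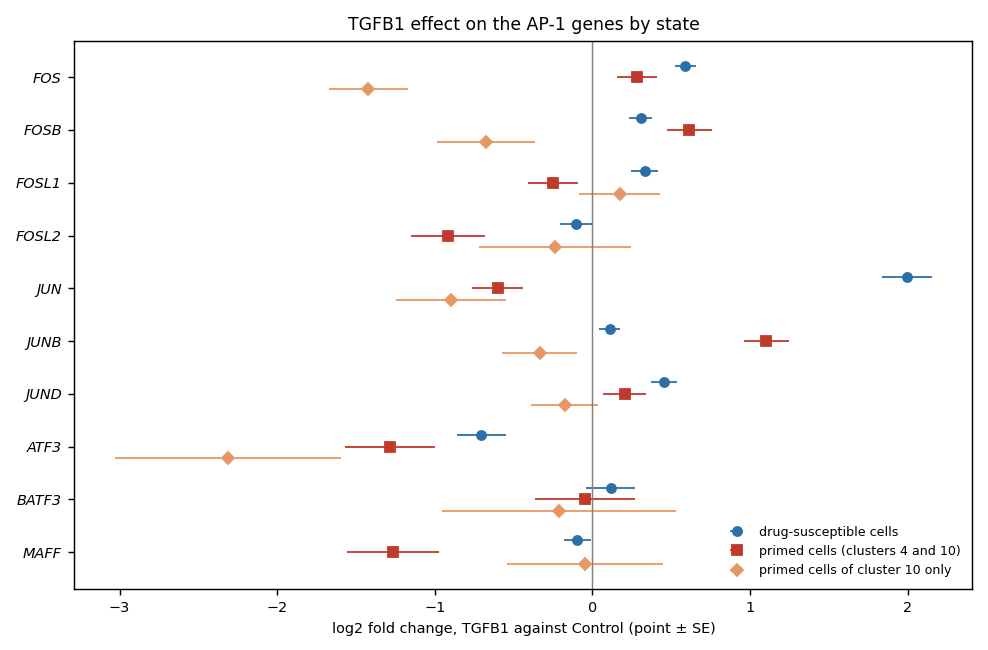
Log2 fold change of TGFB1 against Control for the 10 AP-1 members in drug-susceptible cells (blue), all primed cells (red) and the primed cells of cluster 10 (orange), with bars of 1 standard error from edgeR. JUN is at 1.99 in drug-susceptible and -0.60 in primed cells, and JUNB at 0.11 and 1.104, but in the primed cells of cluster 10 alone (orange) JUN is at -0.90 and JUNB at -0.34.

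The inhibitors changed fewer members. With TGFBRi, FOSB over all cells went from 36.5 and 27.3 CPM to 45.6 and 38.8 (log2 0.43, SE 0.0672, adjusted p = 0.000505) and ATF3 from 2.05 and 2.12 to 2.86 and 2.98 (log2 0.50, SE 0.119, adjusted p = 0.0218). In drug-susceptible cells FOSB (log2 0.47, adjusted p = 0.000223) and ATF3 (log2 0.70, adjusted p = 0.00172) rose likewise, ATF3 from 1.68 and 1.85 CPM to 2.75 and 2.93, and FOSL2 fell from 7.79 and 6.87 to 4.96 and 6.15 (log2 -0.38, adjusted p = 0.0475). Of all genes, 1.09% rose and 1.45% fell over all cells, and 1.22% and 1.59% in drug-susceptible cells. Both calls over all cells were lost without Control replicate 2, with edgeR adjusted p of 0.0623 for FOSB and 0.313 for ATF3, and that of ATF3 also without Control replicate 1 (0.134) and TGFBRi replicate 2 (0.111). JUN over all cells, at 4.21 and 7.74 against 3.52 and 5.37, did not pass, but was called without TGFBRi replicate 1 (log2 0.77, edgeR adjusted p = 0.00161), as was FOSL2 without TGFBRi replicate 2 (log2 -0.56, edgeR adjusted p = 0.0042). In drug-susceptible cells JUN was called without Control replicate 2 (edgeR adjusted p = 0.00258) or TGFBRi replicate 1 (0.00621). Without the filter on low counts edgeR called JUN over all cells (adjusted p = 0.000703) and in drug-susceptible cells (0.00248), and FOSL2 over all cells (0.0302). The FOSL2 call in drug-susceptible cells was lost without Control replicate 1 (edgeR adjusted p = 0.513), TGFBRi replicate 1 (0.333) or any of the 4 TGFB1 and PI3Ki libraries (0.0593 to 0.0726). Without the replicate term no TGFBRi call of a member held in edgeR, with adjusted p of 0.567 for FOSB and 0.197 for ATF3 over all cells. DESeq2 did not call ATF3 over all cells (adjusted p = 0.221) or in drug-susceptible cells (0.0503), nor FOSL2 in the latter (0.16). In G1 cells FOSB and ATF3 over all cells (edgeR adjusted p of 0.156 and 0.501) and FOSL2 in drug-susceptible cells (0.282) were not called either.

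With PI3Ki, 5 members fell over all cells and FOS rose. ATF3 fell from 2.05 and 2.12 CPM to 0.840 and 0.874 (log2 -1.17, SE 0.143, adjusted p = 6.73e-06) and FOSL1 from 59.6 and 72.5 to 36.2 and 49.9 (log2 -0.52, SE 0.0888, adjusted p = 0.000335). JUN fell from 3.52 and 5.37 to 2.34 and 2.32 (log2 -0.84, SE 0.180, adjusted p = 0.0029). BATF3 (log2 -0.49, adjusted p = 0.0393) and FOSL2 (log2 -0.34, adjusted p = 0.0359) fell and FOS rose (log2 0.22, adjusted p = 0.0359), beside 6.83% of all genes that fell and 5.83% that rose. Without PI3Ki replicate 2, FOS (edgeR adjusted p = 0.633), FOSL2 (0.466), JUN (0.157) and BATF3 (0.682) lost their calls. Without Control replicate 2, FOS (edgeR adjusted p = 0.233), JUN (0.0538) and BATF3 (0.307) did, without Control replicate 1 FOS (0.246) and FOSL2 (0.393), and without PI3Ki replicate 1 FOS (0.0503) and FOSL2 (0.0545). FOSL2 was also lost without either TGFB1 library (edgeR adjusted p of 0.0565 and 0.0566). DESeq2 did not call FOS (adjusted p = 0.0614), FOSL2 (0.108), JUN (0.127) or BATF3 (0.139), and without the replicate term edgeR lost FOSL1 as well (0.167), leaving ATF3. In G1 cells FOS (edgeR adjusted p = 0.469) and BATF3 (0.128) were not called.

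In drug-susceptible cells FOSL1 (log2 -0.50, adjusted p = 0.000488) and ATF3 (log2 -0.97, adjusted p = 0.000116) fell again under PI3Ki, as did FOSL2 (log2 -0.32, adjusted p = 0.0444) and BATF3 (log2 -0.48, adjusted p = 0.0489), and FOS rose (log2 0.28, adjusted p = 0.00651), where 6.22% of all genes fell and 5.89% rose. ATF3 and BATF3 were no longer called in G1 cells (edgeR adjusted p of 0.279 and 0.106), and FOS, FOSL2 and BATF3 were not without PI3Ki replicate 2 (edgeR adjusted p of 0.319, 0.504 and 0.852). FOS was also lost without Control replicate 1 (edgeR adjusted p = 0.0568) or 2 (0.153), FOSL2 without Control replicate 1 (0.509), PI3Ki replicate 1 (0.0827) or either TGFB1 library (0.0603 and 0.0567), and BATF3 without Control replicate 2 (0.282) or either TGFB1 library (0.0655 and 0.0619). FOSL1 kept its call without any 1 library, but without the replicate term edgeR called neither FOSL1 (adjusted p = 0.175) nor FOS (0.0657), FOSL2 (0.194) and BATF3 (0.382). DESeq2 did not call FOSL2 (adjusted p = 0.15) or BATF3 (0.199). JUN in these cells, 2.098 and 3.60 CPM in Control and 2.20 and 1.97 in PI3Ki, did not pass (log2 -0.37, adjusted p = 0.218), and was called without Control replicate 1 (log2 -0.67, edgeR adjusted p = 0.00587) and without the filter on low counts (0.0271).

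In primed cells, 0 members passed under either inhibitor in edgeR or DESeq2, with 2 at an unadjusted edgeR p under 0.05 under TGFBRi (FOS and ATF3) and 2 under PI3Ki (JUN and ATF3). Few cells stood behind these sums, 118 and 271 for TGFBRi and 25 and 70 for PI3Ki. FOS was 119.2 and 114.3 CPM in Control and 84.0 and 72.7 under TGFBRi (log2 -0.59, adjusted p = 0.0552), and ATF3 23.1 and 10.5 in Control and 3.50 and 3.11 under PI3Ki (log2 -2.21, adjusted p = 0.0796), the latter from 1 and 3 UMIs. Background calls were 0.0732% up and 0.302% down under TGFBRi and 0.467% up and 1.32% down under PI3Ki. JUN in the primed cells of PI3Ki was 35.04 and 46.7 CPM, below both Control values of 85.0 and 60.8, without passing (log2 -0.74, adjusted p = 0.18). Without Control replicate 2, JUN and ATF3 were called in edgeR (adjusted p of 0.0235 and 0.0267), without PI3Ki replicate 2 FOSL1 was (0.00817), and FOS was under TGFBRi without either PI3Ki library (0.0264 and 0.0228). Without the filter on low counts ATF3 was called under PI3Ki (edgeR adjusted p = 0.0334).

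AP-1 target genes were counted in the same tests. Over all cells TGFB1 raised 13 of the 16 tested (of 18) and lowered 0, with a median log2 of 0.99, where 16.3% of all genes rose and 12.7% fell. In drug-susceptible cells it raised 6 and lowered 2 of 14, beside 8.56% and 6.32% of all genes. MMP1 rose by log2 2.09 (SE 0.242, edgeR adjusted p = 8.68e-07) in drug-susceptible cells, while CXCL8 fell (log2 -2.99, SE 0.663, edgeR adjusted p = 0.00263), with no count in TGFB1 r1. In primed cells 2 of 14 rose and 3 fell, beside 6.21% and 7.09%. TGFBRi raised 3 and lowered 1 of the 16 over all cells (1.09% and 1.45% of all genes). It raised 3 and lowered 2 of 14 in drug-susceptible cells (1.22% and 1.59%), and 0 and 2 of 14 in primed cells (0.0732% and 0.302%). PI3Ki raised 0 and lowered 7 of the 16 over all cells (5.83% and 6.83% of all genes), 1 and 4 of 14 in drug-susceptible cells (5.89% and 6.22%), and 0 and 5 of 14 in primed cells, where 0.467% of all genes rose and 1.32% fell.

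The neighbouring pathways were counted in the drug-susceptible cells of TGFB1, beside the 8.56% of all genes that rose and 6.32% that fell. Other early and dissociation genes rose in 8 and fell in 2 of 24 cases, among them GADD45B (log2 1.59, edgeR adjusted p = 3.31e-11), the zinc finger factors EGR2 (log2 1.15, edgeR adjusted p = 0.0155) and KLF10 (log2 0.78, edgeR adjusted p = 1.73e-07). Other leucine zipper genes rose in 2 of 16, ATF5 (log2 0.43) and ATF6 (log2 0.25), and MAP kinase and serum response factor genes rose in 1 of 24, ELK3 (log2 0.42), and fell in 2, RPS6KA5 (-0.28) and MAP2K7 (-0.23). Among ERK feedback genes SPRY2 rose (log2 0.32) and ETV4 fell (-0.23), of 11. The integrated stress response genes fell in 3 of 7, ASNS (log2 -0.70), DDIT4 (-0.51) and TRIB3 (-0.50), the same direction as ATF3, and under PI3Ki 4 of 7 fell and 0 rose (6.22% and 5.89% of all genes) while under TGFBRi 4 rose and 0 fell (1.22% and 1.59%). Of 6 identity genes DCT (-0.56) and MLANA (-0.44) fell and TYR (0.37) rose. Of 4 primed state markers AXL alone was called, rising by log2 3.03 (edgeR adjusted p = 7.32e-10). In the primed cells of TGFB1, 8 of 11 ERK feedback genes and 5 of 6 integrated stress response genes fell and 0 rose. Of all genes, 7.09% fell and 6.21% rose there, where treatment and cluster cannot be told apart.

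The ATAC-seq peaks were then read for the AP-1 element itself. Within 100 bases of the summit, TGACTCA was found in 9.67% ± 0.0207 (SD, n = 3) of Mix peaks, 10.5% ± 0.280 of EGFR-High, 11.5% ± 0.424 of NGFR-High and 12.7% ± 0.844 of EGFR-NGFR-High peaks, among 148431 to 180758 peaks per library. The ranges of the sorts did not overlap Mix, at 9.66% to 9.70% for Mix and 10.3% to 13.6% for the marker-high libraries. The 9 marker-high libraries lay 1.91 percentage points above the 3 Mix libraries (two-sided exact permutation test, p = 0.01818), while each sort alone against Mix gave 0.1, the smallest p that 3 against 3 allows in an exact test. Without the libraries of replicate 1, 2 or 3, the difference was 1.62 to 2.14 points with an exact permutation p of 0.07143 to 0.1071. Within 1000 bases of gene starts the share was 3.31% against 3.12% (exact permutation p = 0.2545), and farther away 12.5% against 10.5% (exact permutation p = 0.01364). For comparison, the TEAD element GGAATG went the same way by less, at 14.7% of marker-high and 14.2% of Mix peaks (exact permutation p = 0.04091), and was in 21.0% of the regions with a peak in all 9 marker-high and no Mix library against 14.8% of those with a peak in all 12. The MITF E-box CACGTG was in 3.70% of Mix peaks and 3.32% to 3.52% of the marker-high ones (exact permutation p = 0.004545), the SOX element ACAAAG in 20.4% against 19.8% (exact permutation p = 0.01818), and the CRE TGACGTCA in 0.337% against 0.325% (exact permutation p = 0.2045).

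At the members' own promoters no difference from Mix was called. 9 of 10 members had a peak within 1000 bases of the outermost start that GENCODE gives the gene in all 12 libraries, FOS, FOSB, JUN and JUND (sequences above) among them; ATF3 had none there in any library, and its other starts were not used. limma on the log2 fold enrichment called 0 members in all 3 contrasts, with 0, 0 and 1 at an unadjusted p under 0.05. That 1 was FOSL2 in EGFR-NGFR-High, at 134.5, 110.1 and 99.2 times the background against 84.7, 83.4 and 95.4 in Mix (log2 0.30, SE 0.0996, limma adjusted p = 0.231). In NGFR-High, enrichments lay above all Mix values for FOSL2 (104.8 to 116.9 against 83.4 to 95.4) and JUNB (79.5 to 91.4 against 65.3 to 73.1). The same held for JUND (69.1 to 77.9 against 56.6 to 65.9) and FOS (51.2 to 53.4 against 42.4 to 46.1). How many of all promoters did so was not counted. The median over all promoters was also higher in NGFR-High, 39.02 to 42.0 against 34.9 to 37.8, and the test centred each library on it. Without centring limma did not call these 4 either (adjusted p from 0.215 to 0.371). Of 12159 promoters, 0.493% rose and 0.387% fell in NGFR-High, 0.173% and 0.189% in EGFR-High, and 0.658% and 0.23% in EGFR-NGFR-High.

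Around the members, within 50000 bases of those starts, lay 234 of 230495 regions with a peak in any library. 2 had a peak in all 9 marker-high and no Mix library, as 0.565% of all regions did, and 0 the opposite, as 0.128% did. They lie at chr11:65901836-65902341, 1639 bases upstream of FOSL1, with enrichments of 3.98 to 7.14, and at chr1:212613428-212614363 inside ATF3, 48346 bases downstream of that start but just upstream of chr1:212614768-212615017, the 250 bases before another RefSeq start of ATF3, with 4.41 to 17.6; neither holds TGACTCA. Of all 1302 regions of that kind, 36.3% hold TGACTCA, against 12.5% of the 78211 regions with a peak in all 12 libraries and 6.46% of the 294 Mix-only regions.

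The members' loci held 84 of those 78211 shared regions. After centring each library on its median, 12 of the 84 (14.3%) had all 9 marker-high libraries above all 3 Mix libraries and 0 below, beside 6.43% above and 4.9% below over all. Without centring these shares were 2.38% and 1.19% for the members and 4.09% and 5.90% over all, so the count at the members depends on the centring. Of all shared regions with TGACTCA, 15.4% were above and 3.17% below after centring (10.1% and 3.26% without), against 5.15% and 5.15% of those lacking it (3.23% and 6.28% without). Of those with GGAATG, 8.97% were above and 4.79% below after centring, against 5.98% and 4.92% of those without. At the members' loci 14 shared regions held the element, and 7 of these were above after centring but 14.3% of them without.

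The 5 regions below, of those 7, hold TGACTCA (read as TGAGTCA on the other strand), have a peak in all 12 libraries and are shown because they place AP-1 elements at the loci of the AP-1 genes themselves; they were picked after their values were seen. Each is the plus strand of hg38 within 100 bases of the summit, with the element in capitals. BATF3 is at chr1:212667546-212667746, between genes, 32194 bases downstream of the start; ATF3 at chr1:212545982-212546182, in an intron of LINC01740, 19252 bases upstream; FOSL1 at chr11:65915740-65915940, between genes, 15267 bases upstream; FOSB at chr19:45455798-45455998, in an intron of ERCC1, 12097 bases upstream; and JUN at chr1:58823496-58823696, in an intron of LINC01135, 39548 bases upstream.
BATF3 region: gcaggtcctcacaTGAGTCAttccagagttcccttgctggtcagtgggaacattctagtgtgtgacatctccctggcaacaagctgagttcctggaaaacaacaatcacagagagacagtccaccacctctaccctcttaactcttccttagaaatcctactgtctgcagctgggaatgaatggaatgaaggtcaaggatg
ATF3 region: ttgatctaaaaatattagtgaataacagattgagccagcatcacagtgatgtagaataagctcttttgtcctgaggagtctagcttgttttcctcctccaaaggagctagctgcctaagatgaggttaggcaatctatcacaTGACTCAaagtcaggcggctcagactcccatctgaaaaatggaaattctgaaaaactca
FOSL1 region: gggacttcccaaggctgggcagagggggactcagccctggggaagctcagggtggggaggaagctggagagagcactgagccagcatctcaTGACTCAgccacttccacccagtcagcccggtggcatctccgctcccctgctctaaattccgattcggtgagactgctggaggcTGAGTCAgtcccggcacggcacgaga
FOSB region: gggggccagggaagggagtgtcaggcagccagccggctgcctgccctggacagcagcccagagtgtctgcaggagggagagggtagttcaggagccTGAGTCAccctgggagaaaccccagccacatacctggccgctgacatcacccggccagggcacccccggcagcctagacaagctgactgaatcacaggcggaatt
JUN region: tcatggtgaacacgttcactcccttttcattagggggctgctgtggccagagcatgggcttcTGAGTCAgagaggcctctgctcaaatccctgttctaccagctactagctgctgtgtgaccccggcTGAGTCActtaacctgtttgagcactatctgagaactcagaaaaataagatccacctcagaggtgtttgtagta
The FOSL1 and JUN regions hold 2 elements each. The region by BATF3 differed most, with fold enrichments of 9.41, 9.43 and 9.20 in Mix, 40.2, 34.6 and 27.3 in NGFR-High, 31.6, 27.0 and 18.1 in EGFR-High and 49.1, 34.0 and 29.8 in EGFR-NGFR-High. Mix and marker-high libraries did not overlap there with or without centring. The region upstream of ATF3 was 11.7, 10.4 and 12.1 in Mix, 27.0, 21.0 and 20.2 in NGFR-High, 11.95, 15.6 and 15.2 in EGFR-High and 27.4, 19.9 and 17.9 in EGFR-NGFR-High.

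The regions by FOSL1, FOSB and JUN differed less. That by FOSL1 was 42.1, 28.3 and 38.2 in Mix, 59.3, 48.1 and 45.6 in NGFR-High and 60.1, 47.3 and 57.6 in EGFR-NGFR-High, with EGFR-High at 41.8, 44.9 and 47.0. That by FOSB was 49.3, 55.6 and 52.3 in Mix, 79.9, 62.5 and 68.2 in NGFR-High, 59.3, 60.0 and 50.4 in EGFR-High and 93.4, 68.5 and 58.1 in EGFR-NGFR-High. That by JUN was 14.8, 11.3 and 14.5 in Mix and 23.5, 18.9 and 16.4 in EGFR-NGFR-High. Before centring, EGFR-High overlapped Mix in the ATF3, FOSL1, FOSB and JUN regions, and NGFR-High and EGFR-NGFR-High lay above Mix in all 5. An element in a peak does not show which subunit bound it, or that any did.

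**Figure D5:**
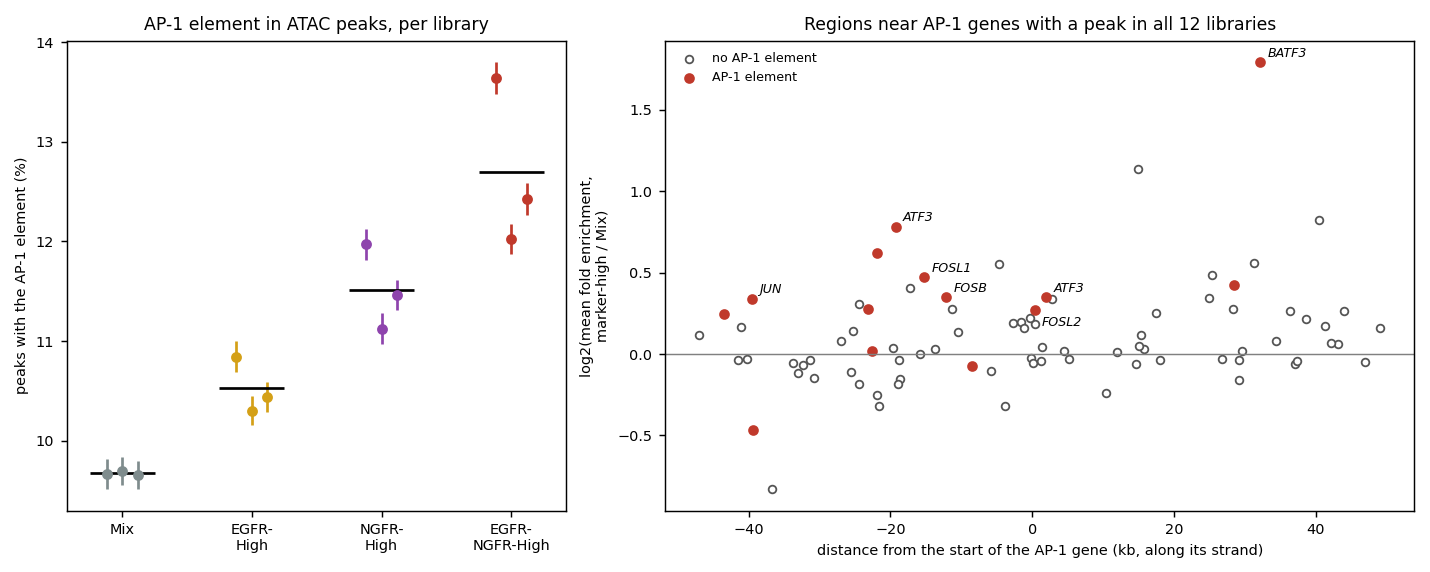
Share of ATAC-seq peaks with the AP-1 element TGACTCA within 100 bases of the summit, in percent (left). Each library is 1 point with its Wilson binomial interval, and a line marks each sort's mean. The right panel gives the log2 ratio of the mean fold enrichment of marker-high to Mix libraries at the 84 shared regions near the members. Regions are placed by distance from the gene's start, not centred, and filled where the element is present. Mix libraries lie at 9.66% to 9.70% and the marker-high libraries at 10.3% to 13.6%, with EGFR-NGFR-High highest, and the region by BATF3 lies highest on the right.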

How the data were processed

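The values of the RNA experiments are UMI counts per gene and cell that the authors deposited, made with Cell Ranger on hg38 (version not given in the sources used here), aggregated without depth normalization and filtered in Seurat on genes per cell and mitochondrial share. States, clusters, treatments and cell cycle phases are the authors' labels per cell. The deposited ATAC-seq peak lists were called in each library after alignment with Bowtie 2, and hold the fold enrichment that MACS 2 gave the authors, a ratio over local background. The −log10 of the q-value in the deposited lists, also from the authors' peak caller, entered no result. No reads were reprocessed and no doublet caller was run.

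For each well or library and state, the cells' counts were added up and scaled to CPM (counts per 1e6 UMIs). The sums of the treatment experiment entered edgeR 4.0.16 (R 4.3.3) (filterByExpr, TMM, factors from 0.941 to 1.05 over all cells; two-sided quasi-likelihood test; Benjamini-Hochberg threshold 0.05) with treatment and replicate as terms, which left 3 residual degrees of freedom, or 4 for the interaction, where libraries with at least 20 primed cells entered. The standard error is the fold change divided by the square root of F. Libraries of a replicate came from the same well, and their r2 minus r1 differences correlated over 5562 genes in all 6 pairs of treatments (Pearson's r 0.147 to 0.660). Nothing marks the libraries as separate cultures beyond these wells, so p-values measure the spread between them, which may be technical. In the interaction fit the median prior degrees of freedom were infinite, so most genes' spread was taken from the trend over all genes. Promoter enrichments, taken as the highest peak within 1000 bases of a start, were tested with limma 3.58.1 on log2 values centred per library. Motif shares were compared over libraries by exact permutation in numpy 2.4.6. The procedures were tested on simulated data. Poisson and binomial intervals at 95%, from scipy 1.17.1, cover counting error only. The gene and state names are those of the files; region annotation came from GENCODE on hg38 and promoter sequence from RefSeq (GRCh38.p14).

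Sample labels give the treatment replicates as Mix and Primed, cell labels as r1 and r2; the link between these names remained unsettled. The members and gene lists were chosen with earlier results of these data known. Named beside the members are, for each list, the 3 genes with the largest change called in TGFB1 drug-susceptible cells with the same sign in both replicates and the 3 with the largest ratio between the WM989 states among genes at 20 CPM or more in either. 1 gene that this rule names is not reported here. Alternatives were DESeq2 1.42.0, no filter, no replicate term, G1 cells only, each library left out, other peak windows, the strongest peaks and, added after seeing the data, cluster 10 cells only. Plain CPM scaling was set beside the fits in the median gene only, without calls.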

Additional observations from a re-analysis of the deposited data

Results flagged for a closer look

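By edgeR's interaction term, the change under TGFB1 differed between primed and drug-susceptible cells for 6 of the 10 members. The authors called these states from the same counts. The difference, primed minus drug-susceptible on the log2 scale, was -2.445 for JUN, 1.069 for JUNB, -1.076 for MAFF, -0.7885 for FOSL2, -0.4774 for FOSL1 and 0.3855 for FOSB. JUN kept its sign and its call with cluster 10 cells as the primed cells and in DESeq2, while JUNB, FOSB and MAFF changed sign with cluster 10 cells and FOSL2 and FOSL1 fell to -0.15 each and lost their calls (edgeR adjusted p of 0.951 and 0.886). Over the 10 members in each state of untreated WM989 cells, 20 sets of 8 wells, 0 held a well far from the others, where chance alone would mark about 1 in 20.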

How the results depend on the processing

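The calls of the treatment experiment depend on the replicate term. Without the replicate block, TGFB1 calls in drug-susceptible cells went from 2665 to 1189 genes (members 6 to 3), PI3Ki calls over all cells from 2328 to 649 (members 6 to 1), in drug-susceptible cells from 2170 to 570 (members 5 to 1) and in primed cells from 195 to 87, and TGFBRi calls from 466 to 40 (members 2 to 0), from 503 to 47 (members 3 to 0) and from 41 to 9. DESeq2 gave 693 for TGFB1 in primed cells (main 1454; members 2 of 6), 763 for the interaction (main 1847; members 2 of 6), 326 and 16 for TGFBRi in drug-susceptible and primed cells, and members of 2 and 3 for PI3Ki and 1 and 1 for TGFBRi over all and drug-susceptible cells. G1 cells alone gave 50 for PI3Ki in primed cells, 1134 for the interaction, 148, 210 and 14 for TGFBRi over all, drug-susceptible and primed cells, and members of 3 for PI3Ki in drug-susceptible cells and 0 for TGFBRi over all cells. Without the filter on low counts, TGFBRi called 748 genes (members 4), and PI3Ki 1 member in primed cells. Cluster 10 cells alone, chosen after seeing the data, gave 257 for TGFB1 in primed cells (members 1), 104 for PI3Ki, 5 for TGFBRi and 498 for the interaction (members 3). There the signs turned for FOS (-1.42), FOSB (-0.68) and JUNB (-0.34) in primed cells, and for FOSB (-0.98), JUNB (-0.41) and MAFF (0.037) in the interaction. Apart from the smaller number of cells, the cause was not tested.

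Leaving out each library in turn, with the spread then taken from the other groups for the one left with 1 library, gave 3164 to 6377 calls for TGFB1 over all cells (members 5 to 8), 988 to 3722 in drug-susceptible cells (2 to 6) and 584 to 1726 in primed cells (3 to 6), 825 to 2125 for the interaction (3 to 6), 168 to 1146 for TGFBRi over all cells (0 to 3), 206 to 1247 in drug-susceptible cells (2 to 4) and 17 to 63 in primed cells (0 to 1), and 719 to 3298 for PI3Ki over all cells (2 to 6), 632 to 3286 in drug-susceptible cells (2 to 5) and 96 to 239 in primed cells (0 to 2). For ATAC promoters it gave 0 to 108 for NGFR-High (main 107, and 63 with a narrower window around starts), 6 to 23 for EGFR-High (main 44) and 20 to 80 for EGFR-NGFR-High (main 108). The AP-1 element share differed by 1.62 to 2.14 points, with exact permutation p from 0.07143 to 0.1071. ATAC replicate numbers did not pair the libraries (r -0.0576 to 0.115, 2 of 18 pairs over 0.1). The replicate block left the difference at 1.91 points with an exact permutation p of 0.25. That is the smallest p that 3 replicate differences allow, so this test could not pass. The number of primed Control and PI3Ki cells limits the primed comparisons.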
